A study of Mus musculus with 16 samples.

Results

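Neurotrophins and pain neuropeptides were followed as 8 genes chosen by name: the ligands Bdnf, Ntf3 and Gdnf, the receptors Ngfr and Ntrk2, and the neuropeptide precursors Npy, Tac1 and Calca. All 8 were found among the 49315 genes of the expression table. RNA of intervertebral discs from 16 mice had been sequenced in bulk, with 4 tail discs of each mouse pooled into 1 library. The groups were intact discs of wild-type mice (n = 3), injured discs of wild-type mice (n = 4), intact discs of Adam8EQ mice (n = 4) and injured discs of Adam8EQ mice (n = 5). The Adam8EQ mice are called mutants here, Adam8 is the gene of a metalloprotease of the ADAM family, and the series title names DBA, an inbred strain, as the comparison. The labels do not describe the EQ allele, the kind of injury, the time after it, or the age and sex of the mice, and the genotype of the wild-type libraries came from their titles.

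Neurotrophins are secreted growth factors that keep sensory and sympathetic neurons alive and guide their axons through Trk receptor kinases, with the p75 receptor as a shared partner. GDNF acts in a parallel system through the receptor kinase Ret and a co-receptor. Neuropeptides such as substance P and the calcitonin gene-related peptide are made as precursors in sensory neurons, and neuropeptide Y is best known outside the brain from sympathetic nerves. A healthy disc holds few nerve fibres, and the cell bodies of the nerves that reach it lie outside the disc.

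Levels are TPM values, transcripts relative to the total of a library, which allow for gene length and for the library total, so levels of different genes can be set side by side. A change is the difference between group means of log2(TPM + 1), which makes changes of low genes look smaller, and is given with the standard error (SE) of the fit. Tested genes reached 1 TPM in at least 3 libraries, 24188 in all, and a change was called at a limma adjusted p under 0.05. Of the 8 members, 4 passed that filter: Npy, Ntrk2, Gdnf and Ngfr. Gdnf passed only through injured libraries. The other 4 members (Bdnf, Ntf3, Tac1 and Calca) stayed under 1 TPM in all 16 libraries.

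Each library held 10220109 to 24881430 reads, as implied by its TPM values. Disc and cartilage markers were abundant in each group, with summed means of 35020 TPM in intact wild-type, 38840 TPM in intact mutant, 23080 TPM in injured wild-type and 15630 TPM in injured mutant discs. Macrophage and leukocyte markers, 7 genes, summed to 122 to 171 TPM in the 7 intact libraries, to 202, 333, 3292 and 2130 TPM in injured wild-type mice 1 to 4, and to 1716, 6943, 1035, 2173 and 640 TPM in injured mutants 1 to 5. Library names begin with A8 in injured and intact mutants 1 and 2, with M in the other mutants and with D in the wild type, and the labels do not say what the letters stand for. The names of the wild-type libraries and their genotype cannot be told apart. A difference in a bulk sample can come from the number of cells of a type or from RNA per cell, and these cannot be told apart.

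The results turned on Npy and Ntrk2, and the 250 bases before the annotated start of each gene are shown because these were the members whose levels rose with injury in mutants. The sequences are those of RefSeq for GRCm38.p6, plus strand, at chr6:49822460-49822709 for Npy and chr13:58806319-58806568 for Ntrk2. Capitals mark matches to a searched motif.
Npy: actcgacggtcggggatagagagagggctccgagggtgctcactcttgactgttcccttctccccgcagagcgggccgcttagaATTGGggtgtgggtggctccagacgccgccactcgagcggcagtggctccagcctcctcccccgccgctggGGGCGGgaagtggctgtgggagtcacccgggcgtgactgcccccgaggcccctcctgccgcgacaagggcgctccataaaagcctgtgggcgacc
Ntrk2: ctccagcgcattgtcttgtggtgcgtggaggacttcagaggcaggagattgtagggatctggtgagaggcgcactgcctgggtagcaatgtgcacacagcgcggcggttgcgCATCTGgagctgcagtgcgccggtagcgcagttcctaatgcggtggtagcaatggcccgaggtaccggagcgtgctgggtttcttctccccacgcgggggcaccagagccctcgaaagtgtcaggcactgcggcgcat

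In these windows 6 motifs were searched on both strands, and the matches did not overlap each other. The Npy window, with 69.2% G and C, held a CCAAT box (CCAAT) on the minus strand at -166 to -162 from the start and a GC box (GGGCGG) on the plus strand at -95 to -90. A CCAAT box was in 33.8% and a GC box in 32.7% of all 32851 promoter windows of that length. The Ntrk2 window, with 62.8% G and C, held an E-box (CANNTG) as CATCTG at -138 to -133, a motif in 66.2% of the windows. The letters of an AP-1 motif (TGANTCA, in 6.75% of windows), a STAT motif (TTCNNNGAA, 7.02%) and a TATA box (TATAAA, 12.4%) were in neither window. The 2 promoters shared no motif among those searched. These matches describe letters only.

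Neuropeptide Y, a peptide that sympathetic nerves release beside noradrenaline, had the widest range of the 8 members. Npy (ENSMUSG00000029819) is a protein-coding gene on the plus strand of chromosome 6, at 49822710 to 49829507 of GRCm38, with no other annotated gene over it. In intact wild-type discs its level was 0, 1.11 and 0 TPM in mice 1 to 3. In intact mutant discs it was 2.14, 2.22, 1.57 and 0.547 TPM in mice 1 to 4. Both intact groups were near the limit of detection, since 1 read of this short gene was worth 0.305 to 0.715 TPM and no intact library held more than 4 implied reads. In injured wild-type discs the level was 1.13, 3.93, 22.4 and 23.7 TPM in mice 1 to 4. In injured mutant discs it was 53.7, 76.4, 88.7, 53.1 and 192 TPM in mice 1 to 5, from 101 to 347 implied reads. All 5 injured mutants lay above all other libraries. The injured wild-type mice fell into a low pair (mice 1 and 2), close to the intact level, and a high pair (mice 3 and 4).

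Injury raised Npy in the mutants, from a mean of 1.62 TPM (SD 0.773, n = 4) to one of 92.8 TPM (SD 57.6, n = 5). The ratio of the means was 57.3, though the intact group held only 11 implied reads in all. The change was 5.04 ± 0.69 (SE) on the log2(TPM + 1) scale, with a limma adjusted p of 0.000315. The exact two-sided permutation p was 0.0159, the smallest that 5 against 4 mice allow. In this comparison 2 of the 4 tested members, Npy and Ntrk2, were higher and called, where 13.1% of all tested genes were higher and called. Npy was also the only one of them without overlap of the groups, as were 12.0% of tested genes with injured mutants higher. Among the mutants with A8 names the change was 4.35 (adjusted p = 0.0279), and among those with M names it was 5.62 (adjusted p = 0.0231).

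In the wild type the injured libraries also lay above the intact ones but only just, with 1.13 TPM in the lowest injured and 1.11 TPM in the highest intact mouse. Both of these libraries held 2 implied reads of Npy, so their order did not rest on a difference in reads. Non-overlap with injured mice higher was seen in 9.22% of tested genes. The means were 0.370 ± 0.641 TPM (SD, n = 3) and 12.8 ± 11.9 TPM (SD, n = 4). The change of 2.78 ± 0.79 (SE) did not pass the limma test (adjusted p = 0.130). The exact permutation p was 0.0571, the smallest possible with 4 against 3 mice, and ran from 0.0571 to 0.114 in 2 other settings. Without injured wild-type mouse 1 the Npy change was 3.46 and passed (limma adjusted p = 0.0223). By limma, none of the 4 tested members was called for injury in the wild type, where 0.116% of all tested genes were called. At an unadjusted p under 0.05 there were 2, Npy and Ntrk2, against 17.2% of tested genes, and limma's voom on the implied reads called 0.

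Between genotypes, Npy was higher in injured mutant than in injured wild-type discs, with a ratio of means of 7.26. The change was 3.24 ± 0.69 (SE), with a limma adjusted p of 0.0339, and the groups did not overlap (exact permutation p = 0.0159), as in 0.905% of tested genes with mutants higher. Npy was the only tested member called here, where 0.19% of tested genes were higher and called. At an unadjusted p under 0.05 Ntrk2 was the other, against 20.3% of tested genes. This call depended on the settings: the change stayed between 2.55 and 3.73 over all alternatives, while its adjusted p ran from 0.00753 to 0.221 and passed in 6 of 13 other settings and in 7 of 16 fits that left out 1 mouse. It did not pass without wild-type injured mouse 1 (0.113) or 2 (0.145), without injured mutant 1 (0.0563), 3 (0.0922) or 5 (0.0675), or without intact wild-type mouse 1 or intact mutant 1, 2 or 4 (0.0511 to 0.0515). Within the mutants with A8 names the change against the wild type was 2.88 (adjusted p = 0.215), and with M names it was 3.47 (adjusted p = 0.0694).

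Intact discs of the genotypes overlapped in Npy, and the change of 0.97 ± 0.79 (SE) did not pass (limma adjusted p of 1). The difference between the injury changes of mutant and wild type was 2.26 ± 1.05 (SE), with an unadjusted limma p of 0.0324 and an adjusted p of 0.571. Across all tested genes, 8.18% reached an unadjusted p under 0.05 for this interaction and 0 passed the adjustment. A larger response of Npy in mutants was therefore not called. In the order of the means, intact wild type, intact mutant and injured wild type overlapped with their neighbours, and only the injured mutants stood apart.

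**Figure D1:**
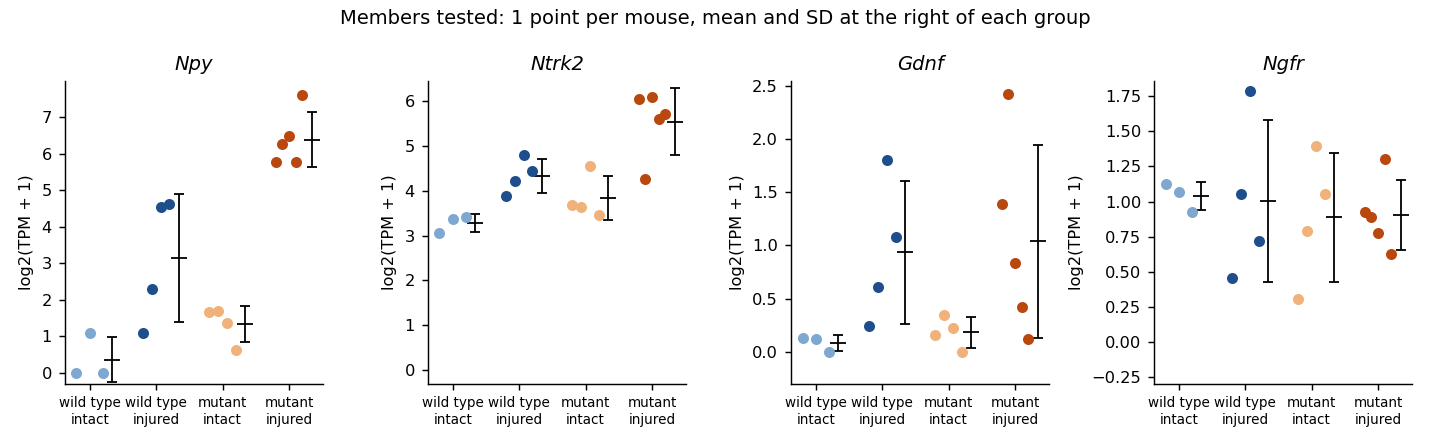
Level of the 4 tested members, as log2(TPM + 1), in each mouse by group; points are mice, and the dash and bar at the right of each group are the mean and SD. The 5 injured mutants lie above all other libraries for Npy, while 1 of them lies within the injured wild-type range for Ntrk2, and Ngfr overlaps in each pair of groups.

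Ntrk2 encodes TrkB, the receptor kinase for the ligands encoded by Bdnf and Ntf5. It was the best measured member, with 415 to 7250 implied reads per library. The gene (ENSMUSG00000055254) lies on the plus strand of chromosome 13, at 58806569 to 59133970, and the annotation places 4 other genes over it, of which Gm47423 and 4930415C11Rik are antisense. Use of strand in the counting is not given in the sources used here, so reads of the overlapping genes cannot be told apart from those of Ntrk2. A value per gene also does not separate full-length transcripts from truncated ones without the kinase domain.

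Ntrk2 measured 7.30, 9.33 and 9.72 TPM in intact wild-type mice 1 to 3. In intact mutants 1 to 4 it measured 11.9, 11.5, 22.4 and 10.1 TPM. Intact mutants were above intact wild-type mice without overlap, and mutant mouse 3 stood well above the other intact libraries. Injured wild-type mice 1 to 4 had 13.8, 17.5, 26.6 and 20.8 TPM. Injured mutants 1 to 5 had 64.9, 18.2, 66.8, 47.3 and 50.8 TPM. Of the injured mutants, 4 exceeded all other libraries, and mouse 2 lay among the injured wild-type values and below intact mutant mouse 3.

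In the mutants, Ntrk2 rose with injury from a mean of 14.0 TPM (SD 5.70, n = 4) to one of 49.6 TPM (SD 19.5, n = 5), a ratio of means of 3.55. The change was 1.70 ± 0.36 (SE; limma adjusted p = 0.00236), and the exact permutation p was 0.0317, which stayed under 0.05 in 2 of 9 fits that left out 1 mouse (0.0286 to 0.0714). With the mutants named A8 alone, which include mouse 2, the change was 1.49 and did not pass (limma adjusted p = 0.0643), and with those named M it was 1.78 (adjusted p = 0.0256). In the wild type the level went from a mean of 8.79 TPM (SD 1.30, n = 3) to one of 19.7 TPM (SD 5.41, n = 4). That change of 1.05 ± 0.41 (SE) did not pass (limma adjusted p = 0.201), although the groups did not overlap. Non-overlap with injured mice higher was seen in 9.22% of all tested genes in the wild type.

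Between genotypes in injured discs the Ntrk2 change was 1.20 ± 0.36 (SE) and did not pass over all genes (limma adjusted p = 0.0787). For this gene alone the exact permutation p was 0.0476, without adjustment for the other tests, and it stayed under 0.05 in 1 of 9 fits that left out 1 mouse (0.0286 to 0.107). The outcome turned on a few libraries: without injured mutant mouse 2 the change was 1.52 (limma adjusted p = 0.00747), and without injured wild-type mouse 3 it was 1.36 (adjusted p = 0.0336). With M names only the change was 1.46 (adjusted p = 0.0371), with A8 names only it was 0.82 (adjusted p = 0.360), and with sample weights it was 1.40 (adjusted p = 0.0235). Over all alternatives that adjusted p ran from 0.00747 to 0.360. In intact discs the change was 0.56 ± 0.41 (SE; limma adjusted p of 1), with no overlap of the groups and an exact permutation p of 0.0571. None of the 4 tested members was called by limma between the genotypes in intact discs, where 0.0165% of tested genes were called, and 0 reached an unadjusted p under 0.05, against 3.78% of tested genes, or passed with voom. Non-overlap with mutants higher occurred in 2.77% of tested genes there. The interaction was 0.65 ± 0.54 (SE), with a limma adjusted p of 0.761.

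**Figure D2:**
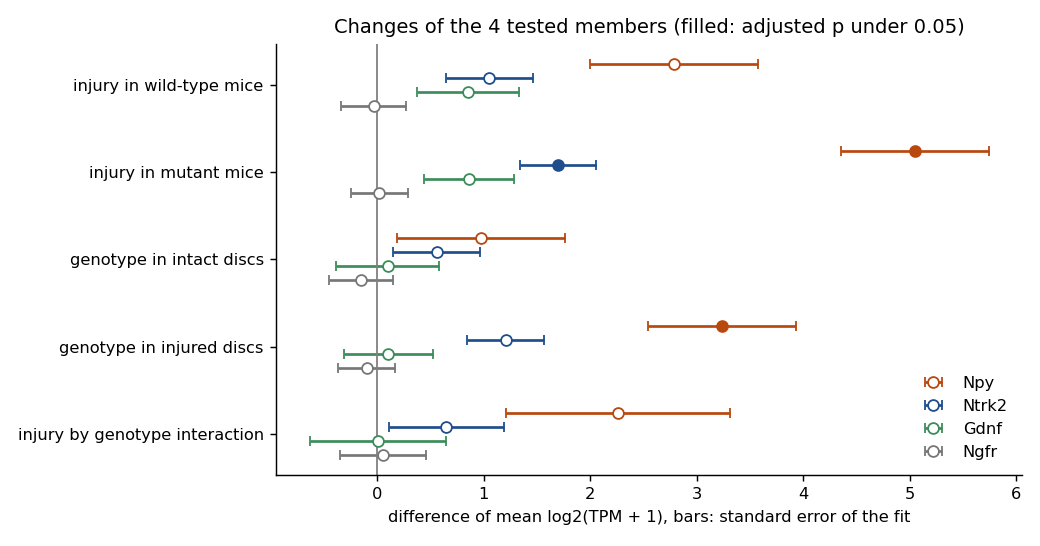
Difference of mean log2(TPM + 1) for the 4 tested members in 5 contrasts, with the standard error of the fit as bars and filled points where the limma adjusted p was under 0.05. Filled points are Npy and Ntrk2 for injury in mutants and Npy between genotypes in injured discs.

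Among the ligands, Gdnf, which supports motor, sensory and enteric neurons, was low everywhere and higher in some injured discs. It lies on the plus strand of chromosome 15 at 7810846 to 7837575. Intact wild-type mice 1 to 3 had 0.0967, 0.0896 and 0 TPM, and intact mutants 1 to 4 had 0.115, 0.269, 0.168 and 0 TPM. No intact library held more than 3 implied reads. Injured wild-type mice 1 to 4 had 0.182, 0.528, 2.49 and 1.11 TPM, and injured mutants 1 to 5 had 1.62, 4.36, 0.785, 0.339 and 0.0893 TPM. The wild-type groups did not overlap, as in 9.22% of tested genes with injured mice higher. That gap was small, since the lowest injured mouse held 2 implied reads and no intact one more than 1. Injured mutant mouse 5, with 1 implied read, lay within the intact mutant range. The change with injury was 0.85 ± 0.48 (SE; limma adjusted p = 0.352) in the wild type and 0.86 ± 0.42 (SE; limma adjusted p = 0.122) in mutants, and neither passed. Between genotypes in injured discs it was 0.10 ± 0.42 (SE), and the sign of that value and of the interaction, 0.01 ± 0.64 (SE), changed with the settings.

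Bdnf, the main TrkB ligand, was detected with few reads. It lies on chromosome 2 at 109674700 to 109727007, plus strand, under the antisense gene Gm45346, which was listed at 0 in all libraries. Levels were 0, 0 and 0.187 TPM in intact wild-type and 0, 0.298, 0.0485 and 0.135 TPM in injured wild-type mice. In mutants they were 0.130, 0.101, 0.285 and 0.0498 TPM when intact and 0.278, 0.189, 0, 0.0957 and 0.202 TPM when injured. The 4 groups overlapped, and the highest library held 10 implied reads. The exact permutation p for injury in mutants was 0.889, and for the wild type 0.571. In injured mutant discs the mean level was 0.153 TPM for Bdnf and 49.6 TPM for the gene of its receptor, Ntrk2.

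Ntf3 encodes neurotrophin-3, the preferred ligand of TrkC. The gene lies on the minus strand of chromosome 6 at 126101412 to 126166910. It was listed at 0 in all 3 intact wild-type mice and in all 5 injured mutants. Injured wild-type mice 1 to 4 had 0.374, 0, 0.703 and 0.326 TPM, and intact mutants 1 to 4 had 0, 0, 0.345 and 0.181 TPM. These values came from 11 implied reads in all. In a single library a count of 0 allows up to 3 reads, worth 0.302 to 0.708 TPM of Ntf3. In all, 8 implied reads came from 52824952 in injured wild-type mice and 0 from 80551087 in injured mutants. The exact permutation p of that difference was 0.0952, and 0.0357 without injured wild-type mouse 2, and in a limma fit without the filter its p was 0.00488 and its adjusted p 0.139.

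Ngfr, the p75 receptor that binds all neurotrophins and marks non-myelinating Schwann cells, passed the test in none of the comparisons. It lies on the minus strand of chromosome 11 at 95568818 to 95587735. Intact wild-type mice had 1.18, 1.09 and 0.901 TPM, and injured wild-type mice had 0.372, 1.07, 2.45 and 0.649 TPM. Intact mutants had 0.235, 0.730, 1.63 and 1.08 TPM, and injured mutants had 0.901, 0.854, 0.711, 1.47 and 0.546 TPM. The groups overlapped in each comparison, and the lowest and highest libraries were an intact mutant and an injured wild-type mouse. Changes with injury were -0.04 ± 0.30 (SE) in the wild type, with a sign that turned when 1 of 3 mice was left out, and 0.02 ± 0.27 (SE) in mutants, with a sign that also turned in 3 of 12 other settings. Schwann cell markers, 10 genes, summed to 567 to 637 TPM in intact wild-type and 338 to 704 TPM in injured wild-type discs. In mutants the sums were 314 to 556 TPM in intact and 263 to 758 TPM in injured discs. The intact ranges of the genotypes did not overlap, with the wild type higher. The injured range of each genotype overlapped its intact range, and the injured ranges overlapped each other.

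The sensory neuropeptide precursors were at the limit of detection. Tac1, the precursor of substance P and neurokinin A, lies on chromosome 6 at 7554879 to 7565834, plus strand. It measured 0.0999, 0.185 and 0 TPM in intact wild-type and 0.119, 0.278, 0.0869 and 0 TPM in intact mutant discs, from 1 to 3 implied reads where it was seen. It was listed at 0 in all 4 injured wild-type and all 5 injured mutant mice. In a single library a count of 0 allows up to 3 reads, worth 0.152 to 0.357 TPM. In all, 8 implied reads came from 86474951 in the 7 intact libraries and 0 from 133376039 in the 9 injured ones. No comparison of Tac1 was called: the exact permutation p was 0.0952 in mutants and 0.286 in the wild type.

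Calca, the precursor of calcitonin and of the calcitonin gene-related peptide, lies on chromosome 7 at 114631478 to 114636357, minus strand. It measured 0.202, 0.373 and 0.461 TPM in intact wild-type and 0.190, 0, 0.358 and 0.332 TPM in injured wild-type mice. Mutants had 0.480, 0, 0.351 and 0.184 TPM when intact and 0, 0.175, 0.182, 0 and 0.186 TPM when injured. The values overlapped between groups, no library held more than 2 implied reads, and the gene-level value does not separate the products. The exact permutation p for injury was 0.254 in mutants and 0.286 in the wild type.

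**Figure D3:**
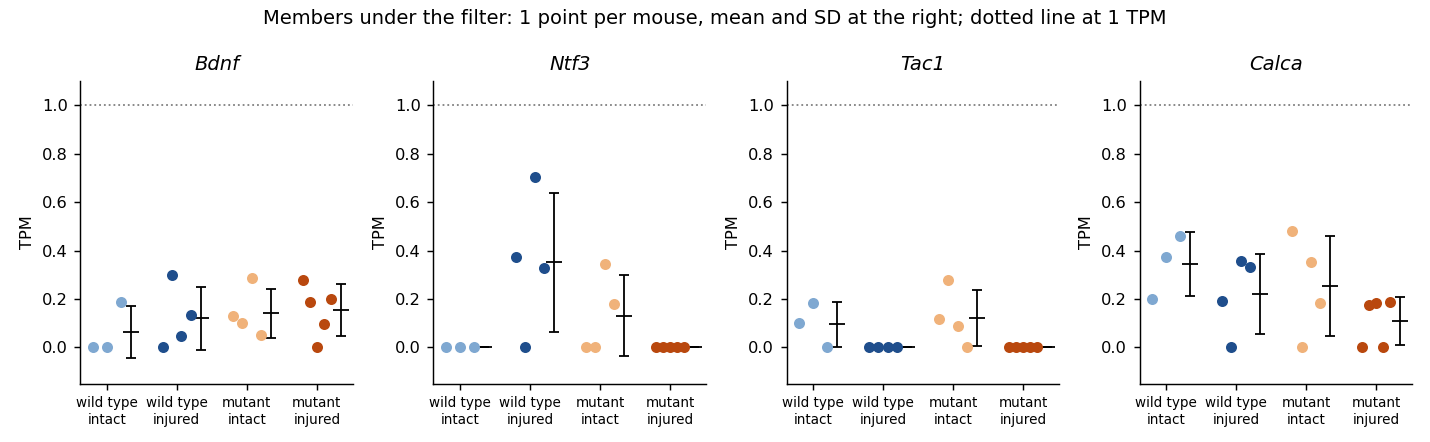
TPM of the 4 members that stayed under 1 TPM, in each mouse by group; points are mice, the dash and bar are the mean and SD, and the dotted line marks 1 TPM. Tac1 is listed at 0 in all 9 injured libraries and Ntf3 in all 5 injured mutants, and no point reaches the line.

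Nerve tissue markers were low throughout. The 13 neuron markers summed to 6.62 to 9.89 TPM in intact wild-type, 5.49 to 18.1 TPM in injured wild-type, 7.56 to 9.50 TPM in intact mutant and 7.89 to 17.0 TPM in injured mutant discs. Among them the tubulin gene Tubb3, which passed the filter only through injured libraries, rose and the intermediate filament gene Prph fell with injury in mutants. The neurofilament genes Nefl and Nefm were at 0 in all 11 libraries outside the injured mutants, where they reached at most 0.088 and 0.103 TPM. Syt1 went the other way, at 0 in all injured libraries and at most 0.093 TPM in intact ones. Rbfox3 averaged 0.406 TPM in intact and 0.0781 TPM in injured mutants. The 4 sympathetic markers summed to 2.91 to 7.28 TPM in intact wild-type, 2.66 to 5.71 TPM in injured wild-type, 2.33 to 4.59 TPM in intact mutant and 1.19 to 2.13 TPM in injured mutant discs. Th, the first enzyme of noradrenaline synthesis and the only tested gene of the 4, was not called. Its means were 3.73, 2.53, 2.28 and 0.583 TPM in that order of groups. It made up most of the mean sum except in injured mutants, where the mean sum was 1.64 TPM. The transporter gene Slc6a2 had means of 0.331, 1.34, 0.400 and 0.632 TPM, and Phox2a of 0.670, 0.283, 0.539 and 0.427 TPM. Dbh, which makes noradrenaline, was listed at 0 in all 5 injured mutants and averaged 0.201, 0.153 and 0.215 TPM in the other groups.

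With injury in mutants 6 of the 7 macrophage and leukocyte markers were higher and called, where 13.1% of all tested genes were. In the wild type 0 of 7 were called, where 0.116% of all tested genes were called. The median change of the 7 was 2.38 in the wild type and 3.24 in mutants. Of 5 tested neutrophil markers 4 were higher and called in mutants. Among these, Csf3r and Cxcr2 passed the filter only through injured libraries, so they could be tested only because they were high there. The summed means of the 6 neutrophil genes were 1.23 TPM in intact and 234 TPM in injured mutants. Endothelial markers, 6 genes of which 0 were called, summed to means of 4.83 and 28.1 TPM there. In the wild type, the 2 injured mice with high Npy were also those with the high leukocyte sums, with high neutrophil sums (178 and 136 TPM) and with high endothelial sums (200.4 and 66.2 TPM). Among injured mutants the order differed: mouse 5 had the highest Npy, 192 TPM, and the lowest leukocyte sum, 640 TPM. Mouse 2 had the highest leukocyte sum, 6943 TPM, the lowest Ntrk2, 18.2 TPM, and the highest Gdnf, 4.36 TPM. The part of these cell types in the Npy, Ntrk2 and Gdnf levels was not tested.

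**Figure D4:**
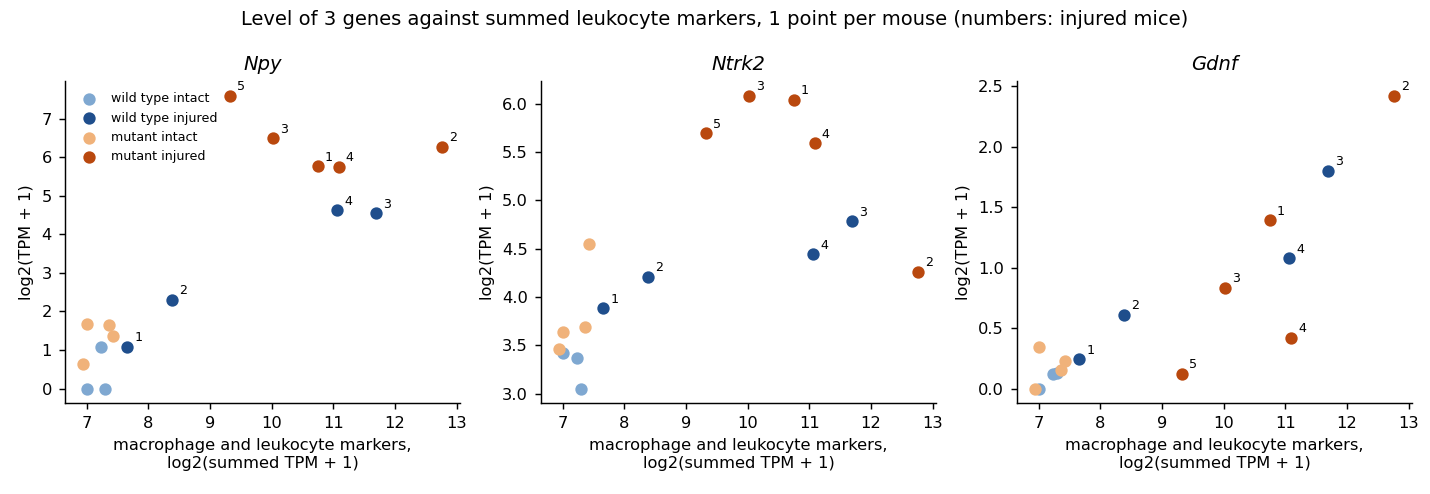
Levels of Npy, Ntrk2 and Gdnf, as log2(TPM + 1), against the summed TPM of macrophage and leukocyte markers, as log2(sum + 1), with 1 point per mouse and mouse numbers beside the injured mice. Injured mutant mouse 2 lies farthest right, lowest of its group for Ntrk2 and highest for Gdnf, and injured mutant mouse 5 lies highest for Npy with the smallest sum of its group.

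The wider pathway held 99 genes with the members, in 10 lists, of which 61 were tested. With injury in mutants 8 rose and 19 fell, 44.3% of those tested, against 30.8% of all tested genes. Their median change was -0.14 against -0.08 for all tested genes. Without the members 43.9% of 57 tested genes were called. The lists were chosen with earlier results of these data known, so these shares are no test of the pathway. Some list genes also passed the filter only through injured or only through intact libraries. In the wild type limma called 0 of the 61 (20 at an unadjusted p under 0.05, 0 with voom). Between genotypes Npy alone was called in injured discs by limma (19 unadjusted, 4 with voom), and 0 were called in intact discs (0 unadjusted, 0 with voom). The interaction had 0 (6 unadjusted, 0 with voom). The changes named below are therefore those of injured against intact mutants. In that comparison 30.8% of all tested genes were called in either direction, 13.1% as higher and the rest of them as lower.

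Of 4 tested neurotrophin receptor genes, Ntrk2 rose and Sort1, the sortilin that pairs with p75 and binds proneurotrophins, fell by 1.46 ± 0.36 (SE; limma adjusted p = 0.00536). Of 9 tested processing genes 2 rose and 4 fell. Furin and Pcsk7, proprotein convertases, rose. Pam, which amidates peptides such as neuropeptide Y, fell by 1.11 ± 0.12 (SE; limma adjusted p = 0.000195), and Pcsk6 and Cpe also fell, as did Pcsk2, which passed the filter only through intact libraries. Of the 4 GDNF family ligands, Artn rose by 0.93 ± 0.24 (SE; limma adjusted p = 0.00861) and Nrtn fell by 2.44 ± 0.35 (SE; limma adjusted p = 0.000391), so the family did not move one way. Of 6 tested GDNF receptor genes, Gfra2, at most 0.598 TPM in intact discs and tested only through injured libraries, rose by 2.09, and Ncam1 and Gfra4 fell by 1.69 and 0.96. Of 6 other neurotrophic factors, Manf rose and Ptn, Cdnf and Nenf fell.

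Of 18 neuropeptide genes 8 were tested, and with injury in mutants Npy and Penk rose and 0 fell. Penk, the enkephalin precursor, rose by 2.57 ± 0.61 (SE; limma adjusted p = 0.0044), from a mean of 2.64 TPM (SD 2.28, n = 4) to one of 19.4 TPM (SD 11.6, n = 5). The median change of the 8 was 0.40. No receptor gene for the members' peptides was called as higher. Tacr1, the substance P receptor, fell by 2.48 ± 0.67 (SE; limma adjusted p = 0.00765), from a mean of 45.3 TPM (SD 14.3, n = 4) to one of 10.1 TPM (SD 8.63, n = 5), where the mean of its ligand gene Tac1 was 0.121 TPM in intact and 0 TPM in injured mutants. Ramp2 fell by 1.37, while the CGRP receptor genes Calcrl and Ramp1 did not pass, at 1.73 ± 0.69 (SE; limma adjusted p = 0.0515) and -0.58 (adjusted p = 0.150), though Calcrl passed in 7 of 13 other settings. The neuropeptide Y receptors were near 0: Npy1r reached at most 2.01 TPM, in an injured wild-type mouse, Npy2r at most 0.186 TPM, and Npy5r was listed at 0 in all libraries.

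Of 4 tested nociceptor channels, Scn9a fell by 0.81 (limma adjusted p = 0.0458), from 1.21 to 0.242 TPM, a call kept in 7 of 12 other settings and in 7 of 16 fits that left out 1 mouse. Of 12 tested axon guidance and repulsion genes, Slit1, Slit2, Slit3, Sema3a and Sema3c fell and 0 rose. Across all tested genes 30.8% were called in either direction, 13.1% as higher and the rest of them as lower. Slit3 went from a mean of 67.5 TPM (SD 13.4, n = 4) to one of 27.5 TPM (SD 18.5, n = 5). Of 21 called changes of list genes, Npy and Ntrk2 included, 8 did not pass with mutants named A8 alone and 16 with those named M alone (Penk and Tacr1 among the latter), in fits with fewer mice. Gfra4 and Slit1 also lost their call in 4 of 16 fits without 1 mouse, and Slit2 did without intact mutant 2.

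**Figure D5:**
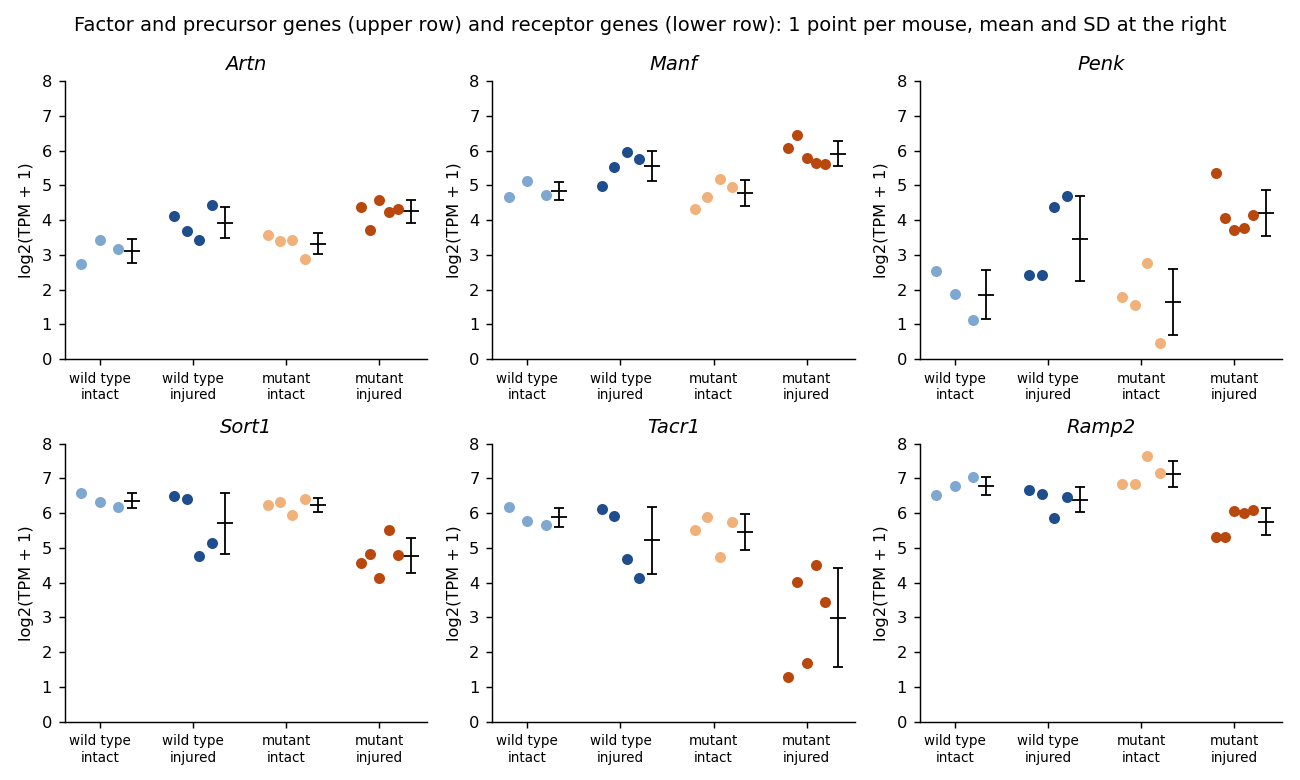
Level as log2(TPM + 1) of 3 factor or precursor genes (Artn, Manf, Penk) and 3 receptor genes (Sort1, Tacr1, Ramp2) in each mouse by group; points are mice, and the dash and bar are the mean and SD. In injured mutants the upper genes had higher means and the lower genes lower means than in intact mutants. The genes shown do not stand for their classes. In the same comparison the factor genes Nrtn, Ptn, Cdnf and Nenf fell, and the receptor genes Ntrk2 and Gfra2 rose.

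The genes whose profile over the 16 libraries was most like that of each tested member were found from the root mean square (RMS) difference of centred and scaled log2(TPM + 1), taken over genes whose mean reached 5 TPM. For Npy they were Medag (RMS difference 0.197), Rin2 (0.235) and Plaur (0.246), the last encoding the urokinase receptor. For Ntrk2 they were Snx7 (0.229), Tnfaip6 (0.230), which encodes a hyaluronan-binding protein, and Jam2 (0.295). Gdnf was closest to Pdpn (0.320), Plin2 (0.320) and Bst1 (0.325). For Ngfr the nearest, Itgb4 and Adh5 (both 0.699), were farther away than for the other 3 members. Medag itself had means of 30.9, 87.4, 41.3 and 280 TPM in intact wild-type, injured wild-type, intact mutant and injured mutant discs, the same order of groups as Tnfaip6, with 16.9, 57.5, 26.3 and 167 TPM.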

How the data were processed

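The authors deposited 1 table of TPM values, 1 column per mouse, normalized to gene length and library total. Per the labels' protocols, RNA was depleted of ribosomal RNA, although the molecule field reads polyA RNA. The submitters' processing notes name GRCm38 and bcl2fastq 2.20. The aligner, the counting method and its use of strand are not given in the sources used here. Replicates are different mice.

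Members, lists and named genes were chosen with earlier results of these data known: Tacr1, Calcrl, Ramp1, Npy1r and Npy2r, and up to 3 called genes per list and contrast with the largest change. Some genes of the lists are not reported here. Other called list genes are named as members of short counts, after their values were seen. Positions came from GENCODE M21. TPM values were converted to implied reads by exon length, and 94.0% to 94.9% of values under 20 reads came within 0.05 of a whole number. Depth is thus 10220109 to 24881430 reads per library, and errors given are between mice.

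limma 3.58.1 (R 4.3.3; lmFit and eBayes with trend) was run on log2(TPM + 1) of the 24188 genes that reached 1 TPM in 3 or more libraries, with all 16 libraries in 1 fit, with Benjamini-Hochberg adjustment per contrast. Exact two-sided permutation tests (the smaller tail doubled) covered the 8 members in 4 contrasts, 32 tests, unadjusted. The fit was tested on simulated data. Alternatives were pseudocount 0.1, no filter, a mean of 5 TPM, 2 other normalizations, no trend, sample weights, only the groups compared, a replicate block, library names as a covariate and leaving out each mouse. Voom on implied reads and the A8 or M subsets were added after seeing the data.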

Additional observations from a re-analysis of the deposited data

Results flagged for a closer look

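Ntrk2 in intact mutants had 1 library far from the others: mouse 3, at 22.4 TPM, where the gap to the next mouse was 0.851 of the range of the group, above the 95% critical value of 0.829 for 4 samples. Npy in injured mutants had 1 such library, mouse 5, at 192 TPM, with a gap of 0.744 of the range, above the critical value of 0.710 for 5 samples. Chance alone gives such a gap in about 1 in 20 groups, and 21 groups of 4 or 5 mice were examined, of which these were 2.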

How the results depend on the processing

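For injury in mutants the count of called members was 2 in all fits except with the mutants named A8 alone, where it was 1. Between genotypes in injured discs the count of 1 became 0 with pseudocount 0.1, without the filter and with only the groups compared. It was also 0 with the replicate block, with library names as a covariate and with A8 names only. With M names only it stayed 1, but the called member was Ntrk2 (limma adjusted p = 0.0371) and not Npy (0.0694). The count was 2 with sample weights, and 0 to 2 when 1 mouse was left out. In the wild type the count ran from 0 to 1 when 1 mouse was left out. The Npy change between injured genotypes with the replicate block was 2.93 (limma adjusted p = 0.103), and for injury in mutants Slit1 (adjusted p = 0.0528) and Scn9a (0.0823) were not called with the block. Shared mouse numbers did not pair the libraries: correlations of same-numbered deviations over 21 pairs ran from -0.217 to 0.151, and 3 of 16 libraries correlated best with their own number. Values near 0 changed sign. The Gdnf interaction was -0.42 with pseudocount 0.1, -0.0939 with sample weights, -0.52 with voom and -0.50 with M names only, and Gdnf between injured genotypes was -0.0206 with sample weights and -0.47 with M names only. Ngfr was -0.0405 (quantile normalization), -0.0122 (library names as a covariate) and -0.32 (M names only) for injury in mutants, 0.10 (quantile normalization) between injured genotypes, and 0.19 and -0.29 (M names only) for intact genotypes and the interaction. When 1 mouse was left out, the change of Ngfr ran from -0.296 to 0.147 for injury in the wild type, from -0.176 to 0.188 for injury in mutants, from -0.323 to 0.0409 between intact genotypes, from -0.282 to 0.161 between injured genotypes and from -0.140 to 0.314 for the interaction. Gdnf ran from -0.241 to 0.394 between injured genotypes and from -0.337 to 0.299 for the interaction. The cause of these changes was not tested. The comparison of only the groups compared was not run for the interaction. Low reads limit Bdnf, Ntf3, Tac1 and Calca.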
